A study of Mus musculus with 12 samples.

Results

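Genes of the type I interferon and antiviral response were followed in the colorectum of mice with colitis, with and without berberine (BBR). The genes were chosen by symbol from a list of 41 interferon-stimulated genes and their regulators, with no measured value in the rule other than a minimum mean level of 0.1 FPKM over the 12 mice. FPKM is a fragment count scaled to transcript length and to sequencing depth, so that levels can be compared between genes of different length. Of the 41 genes, 39 were found among the 17734 genes of the expression table, and all 39 were among the 15315 genes that reached the minimum. Mx1 and Mx2 were not analysed here. By role, the 39 genes comprised 6 sensors of foreign nucleic acid, 11 genes of signalling and feedback, 6 oligoadenylate synthetase (OAS) genes, 9 genes of the IFIT family and other direct effectors, and 7 other interferon-stimulated genes.

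Colitis was induced with dextran sulfate sodium (DSS), a sulfated polysaccharide that injures the lining of the colon, and BBR, a plant alkaloid, was given by gavage. Each of the 4 groups held 3 adult male C57BL/6 mice at day 7: normal mice that received water and neither agent, normal mice that received BBR, colitis mice that received DSS for 7 days, and colitis mice that received DSS for 7 days together with BBR. The labels give 6 days of BBR. All mice are described as the same strain with no altered gene, and the tissue is labelled colorectum, while the methods of the study speak of rectum. RNA came from whole tissue, so that fewer cells of a type and less RNA per cell cannot be told apart. Mice are named by group and by the replicate number of the labels, which runs from 1 to 4 with 3 numbers used in each group. The comparisons share groups: each group stands in 2 of the 4 comparisons of 1 group with another, and the last comparison, the interaction, uses all 4 groups.

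Type I interferons are secreted when cytosolic or endosomal sensors detect viral or other misplaced nucleic acid. They bind a receptor of Ifnar1 and Ifnar2 subunits, whose kinases Jak1 and Tyk2 activate transcription factors, among them Stat2. Stat2 and Irf9 are part of a complex that enters the nucleus, binds the interferon-stimulated response element in promoters and switches on a large set of antiviral genes. In the gut, epithelial cells also answer type III interferons, which use another receptor but the same complex, and some of the genes are known to respond to interferon gamma as well.

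The core of the response element was sought as GAAA, any 2 bases and GAAA again, on both strands of the window from 250 bases before to 50 bases after the annotated start of transcription, with overlapping matches allowed (RefSeq, GRCm38.p6; the deposited values were made on mm9, so that these coordinates are not those of the deposited files). Of the 39 genes, 31 had such a window. The letters were present in 15 of the 31 (48.4%), and in 3.99% of the 27025 genes with a window. The windows below show stretches around matches that lay before the start of transcription, for each gene with such a match except Trim30a, since these are the promoters in which the element of the pathway can be read directly. For Isg15, which held 3 overlapping matches, the 250 bases before the start are given. Each sequence is written 5′ to 3′ on the strand of its gene, and capitals mark the match, which reads TTTC, 2 bases and TTTC where it lies on the other strand.
Isg15, chr4:156200819-156201068, minus strand: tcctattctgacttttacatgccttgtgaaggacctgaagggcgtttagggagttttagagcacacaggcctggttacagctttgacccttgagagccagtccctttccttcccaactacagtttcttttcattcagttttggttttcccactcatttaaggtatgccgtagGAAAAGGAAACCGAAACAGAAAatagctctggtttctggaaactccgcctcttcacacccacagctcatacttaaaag
Bst2, chr8:71537572-71537617, minus strand: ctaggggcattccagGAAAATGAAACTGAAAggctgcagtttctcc
Ifit1, chr19:34640770-34640828, plus strand: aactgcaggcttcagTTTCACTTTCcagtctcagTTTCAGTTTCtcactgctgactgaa
Ifit3, chr19:34583358-34583431, plus strand: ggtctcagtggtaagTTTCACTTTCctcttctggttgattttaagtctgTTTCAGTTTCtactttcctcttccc
Rsad2, chr12:26456548-26456587, minus strand: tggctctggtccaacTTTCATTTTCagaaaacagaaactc
Stat2, chr10:128270261-128270300, plus strand: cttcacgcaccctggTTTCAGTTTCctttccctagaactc
Oas3, chr5:120777710-120777749, minus strand: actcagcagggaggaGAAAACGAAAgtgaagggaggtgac
Oas1a, chr5:120907515-120907560, minus strand: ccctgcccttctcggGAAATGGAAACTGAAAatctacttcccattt
Oas1g, chr5:120887601-120887646, minus strand: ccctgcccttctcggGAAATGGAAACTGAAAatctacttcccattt
Ifitm2, chr7:140955983-140956022, minus strand: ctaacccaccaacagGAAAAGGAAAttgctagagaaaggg

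Oas1a and Oas1g, neighbouring genes on chromosome 5, carried the same 46 letters here. The reads of such near-copies are divided between them by an estimate, so that their separate levels are uncertain, and the same holds for Ifit3 and for the Ifitm genes. Matches at or past the start of transcription were found in Ddx58, Eif2ak2, Ifih1 and Ifitm3. Trim30a has 2 annotated starts, with 1 match just past one and 1 match before the other. A single window held 2 or more matches in 7 of the 15 genes. The letters were not in the window of 16 genes, among them Ifit2, Irf7, Oasl2 and Lgals3bp. The genes were also clustered on the chromosomes: 16 of the 39 had another of the 39 as their next annotated gene, in 9 pairs that included Ifit2 and Ifit3, Oas2 and Oas3, Rsad2 and Cmpk2, and Parp14, Dtx3l and Parp9 in a row.

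**Figure D1:**
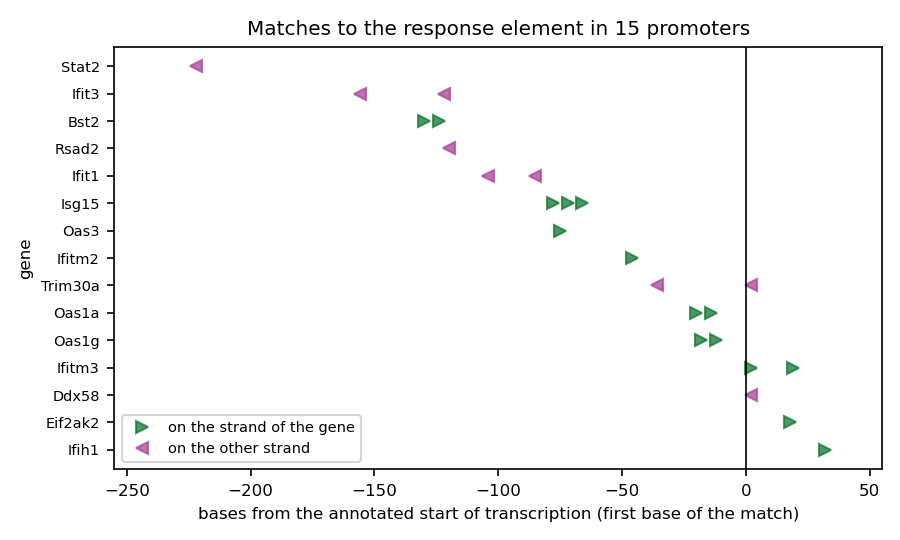
Position of each match to the core of the response element (x axis, bases from the annotated start of transcription, first base of the match) in the 15 promoters that held it (y axis), with green for the strand of the gene and purple for the other strand. Isg15 holds 3 overlapping matches, and the matches of Bst2, Ifit1, Ifit3, Oas1a, Oas1g and Ifitm3 come in pairs. The 2 points of Trim30a belong to the windows of 2 different starts.

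Column totals differed between mice: the 4 mice numbered 4, one in each group, had totals of 482194 to 504337 FPKM and 872 to 1086 genes at 0, and the other 8 mice had 696286 to 765876 FPKM and 1332 to 1926 genes at 0. The labels name no batch for them. The granulocyte gene S100a8 was at 0 FPKM in all 6 mice without DSS and at 336, 290 and 24.9 FPKM in colitis mice 1, 2 and 4. In the colitis mice given BBR it was at 118 and 148 FPKM in mice 2 and 3 and at 0.31 FPKM in mouse 4, close to the level without DSS. The summed level of 4 smooth muscle genes was 807 to 1780 FPKM in the normal mice, 30.9 to 366 FPKM in the colitis mice, 220 and 206 FPKM in colitis mice 2 and 3 given BBR and 1870 FPKM in mouse 4. Not every gene of that mouse was at the level without DSS. Its Socs3 was at 23.95 FPKM, against 1.55 to 4.65 FPKM in the 6 mice without DSS. Its 2 endothelial genes summed to 7.66 FPKM, against 12.2 to 14.1 FPKM there. The summed level of 6 epithelial genes, 4540 to 8200 FPKM over the 12 mice, shows that defining genes of the labelled tissue were present. In the colitis mice the median gene of the whole table was 0.32 lower than in the normal mice on the log2 scale, and results that depend on this shift are given beside it.

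The interferon genes stood about 1 log2 unit higher in every colitis mouse than in the normal mice, and varied most in the mice that received BBR. For each mouse the median over the 39 genes of the log2 level relative to the mean of the normal mice was taken. It was -0.10, 0.13 and -0.06 in normal mice 1, 3 and 4, and 0.97, 0.96 and 1.08 in colitis mice 1, 2 and 4. These groups did not overlap, and 35, 33 and 36 of the 39 genes in the 3 colitis mice exceeded the highest normal mouse. The medians were -0.17, 0.75 and 0.01 in normal mice 1, 3 and 4 given BBR, and 0.43, 1.33 and -0.04 in colitis mice 2, 3 and 4 given BBR. Within either BBR group mouse 3 stood apart: it was the highest of the 3 for 36 of the 39 genes in normal mice given BBR and for 38 of the 39 in colitis mice given BBR. Colitis mouse 4 given BBR, in which S100a8 was nearly absent, was the lowest of its group for 30 genes. The highest mouse of a group exceeded the lowest by a median factor over the genes of 1.43 for normal and 1.44 for colitis mice, against 2.3 and 2.92 once BBR was given.

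**Figure D2:**
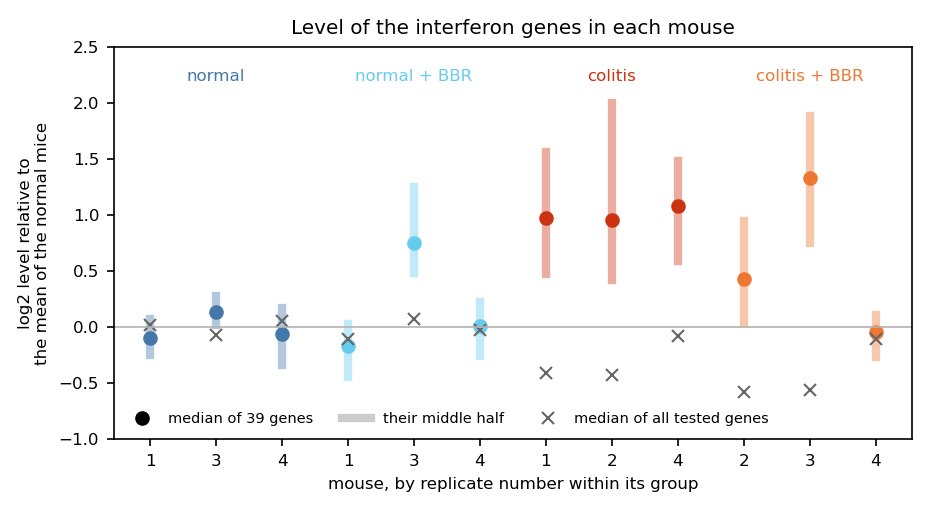
Level of the interferon genes in each mouse (x axis, replicate number within each group; y axis, log2 of FPKM + 0.1 relative to the mean of the normal mice). Points are medians over the 39 genes, bars span their middle 50%, and crosses are medians over all 15315 tested genes. The 3 colitis mice sit between 0.96 and 1.08, and the colitis mice given BBR run from -0.04 to 1.33.

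**Figure D3:**
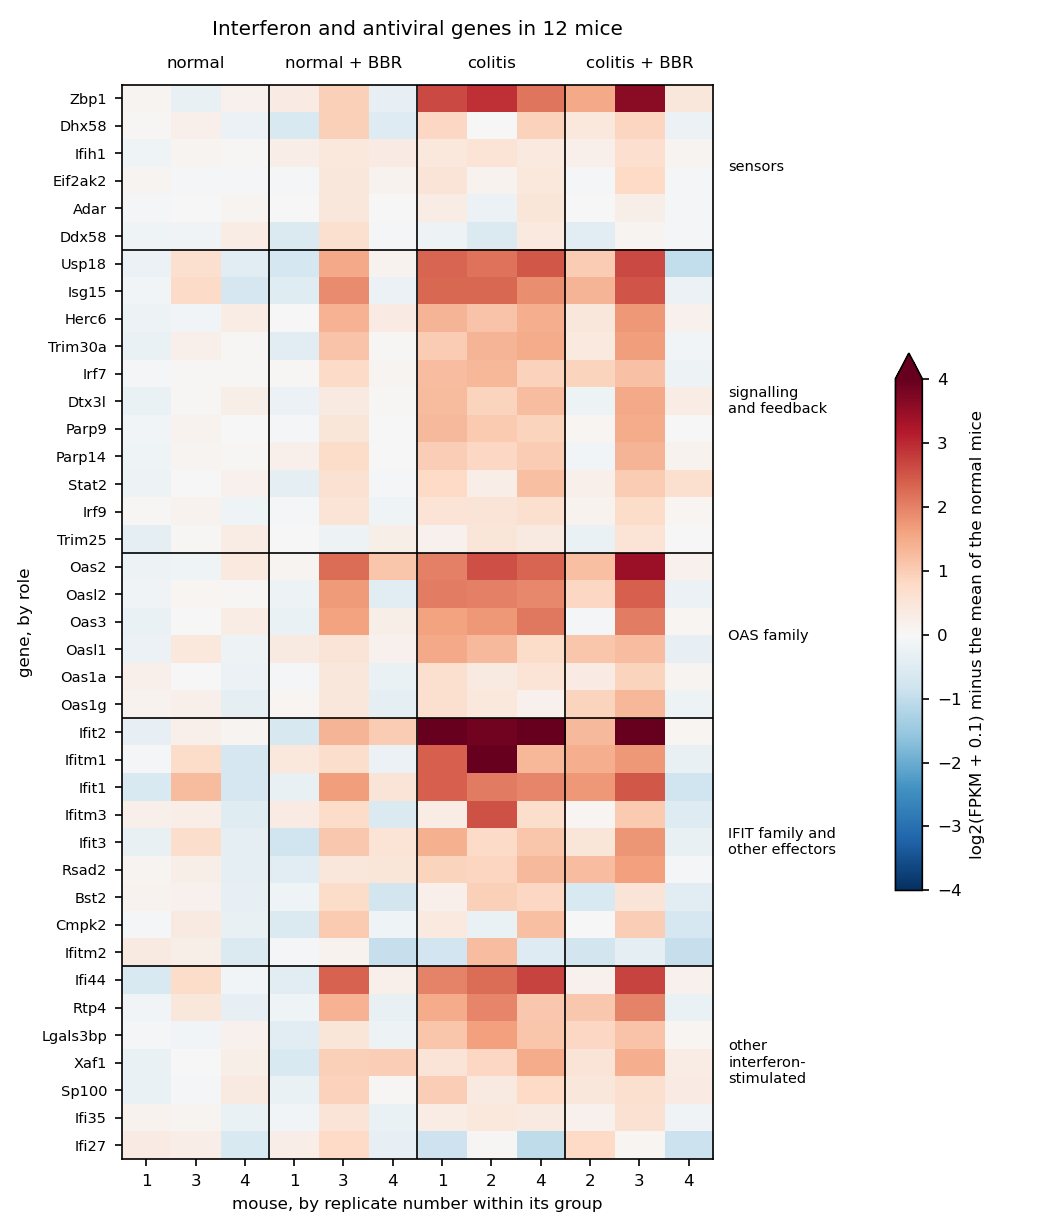
Log2 of FPKM + 0.1 minus the mean of the normal mice for each of the 39 genes (rows, by role) in each mouse (columns, by group and replicate number), with red for higher and blue for lower and the deepest red for any value of 4 or more. The colitis columns are red in most genes except Ifi27, Ddx58 and Ifitm2, and in both BBR groups the column of mouse 3 is the reddest.

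The first comparison asked what colitis did to these genes without BBR. Of the 39 genes, 36 were higher in the colitis mice than in the normal mice and 3 were lower, while 26.2% of all tested genes were higher. The median log2 fold change was 1.09 over the 39 and -0.32 over all tested genes. Ifit2, which encodes a protein that binds viral RNA and blocks its translation, rose in the test of limma across all genes, and the other 38 did not pass the limit of 0.05 on the p-value adjusted over all genes, which 0.653% of all genes passed in the upward direction. The limit used in the study was an unadjusted P of at most 0.05. There 24 of the 39 (61.5%) were higher and none was lower, while 5.56% of all tested genes were higher and 15.9% were lower. The 3 colitis mice all exceeded the 3 normal mice for 30 genes, and 7.1% of all genes showed this pattern. An exact permutation test of 3 against 3 mice cannot give a p below 0.1.

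Ifit2 was at 1.9, 2.8 and 2.61 FPKM in normal mice 1, 3 and 4, and at 68.6, 36.5 and 48.5 FPKM in colitis mice 1, 2 and 4. Every colitis mouse was far above every normal mouse. Its log2 fold change on the log2(FPKM + 0.1) scale was 4.31 ± 0.87 (SE), a 19.8-fold difference, with an adjusted p of 0.043 in limma. The call was close to the limit: with any 1 of the 6 mice left out the adjusted p was 0.0619 to 0.175, with log2 fold changes of 4.07 to 4.53. With all mice it was 0.054 with a pseudocount of 0.01, 0.0539 without the minimum level or with a minimum of 1 FPKM, and 0.0504 with no trend of the spread, and over the other alternatives with all 6 mice it was 0.000816 to 0.0445. In colitis mice 2, 3 and 4 given BBR it was at 6.12, 53 and 2.57 FPKM, and in normal mice 1, 3 and 4 given BBR at 1.5, 6.31 and 4.98 FPKM. Colitis mouse 3 given BBR was thus within the range of the colitis mice, and mouse 4 was within that of the normal mice.

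Of the direct effectors, 8 of 9 were higher in colitis, 4 at an unadjusted P of at most 0.05, and 7 without overlap between the groups, with a median log2 fold change of 1.10. Ifitm1, which belongs to a family of membrane proteins that hinder viral entry, was at 25.8, 44.5 and 17.1 FPKM in the normal mice and at 141, 472 and 67.5 FPKM in the colitis mice, a log2 fold change of 2.61 ± 0.69 and an adjusted p of 0.0792. Its groups did not overlap, but colitis mouse 2 was 6.99 times as high as mouse 4, and without mouse 4 the adjusted p was 0.0459. Ifitm3, the most abundant of the 39 genes with a mean of 189 FPKM, was at 136, 143 and 84.8 FPKM in the normal mice and 147, 689 and 194 FPKM in the colitis mice. Ifitm2 was at 250, 227 and 130 FPKM in the normal mice and 114, 457 and 136 FPKM in the colitis mice. In both genes colitis mouse 2 lay far above the other 2 mice, and the log2 fold changes were 1.19 ± 0.57 for Ifitm3, with an adjusted p of 0.248, and -0.02 ± 0.49 for Ifitm2, with an adjusted p of 0.984. The low Rsad2, whose product viperin disturbs viral replication, was at 4.58, 4.95 and 3.28 FPKM in the normal mice and 7.89, 7.67 and 10.5 FPKM in the colitis mice, a log2 fold change of 1.01 ± 0.40 and an adjusted p of 0.187. Bst2, or tetherin, which holds budding virus at the cell surface, was at 21.7, 22.1 and 15.8 FPKM in the normal mice and 22.7, 38.4 and 35.2 FPKM in the colitis mice. Colitis mouse 1 exceeded the highest normal mouse by under 1 FPKM, and the log2 fold change was 0.67 ± 0.39 with an adjusted p of 0.317. Ifit1, named after its values were seen, was at 6.65, 24.7 and 6.32 FPKM in the normal mice and 53.2, 43.6 and 39.2 FPKM in the colitis mice. Its log2 fold change was 2.14 ± 0.78, and normal mouse 3 was the one normal mouse near the colitis level.

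All 11 signalling and feedback genes were higher in colitis, 10 of them at an unadjusted P of at most 0.05 and 10 without overlap, with log2 fold changes of 0.35 to 2.33 and a median of 1.13. Herc6, which encodes the ligase that attaches Isg15 to proteins in the mouse, was at 2.1, 2.22 and 2.99 FPKM in the normal mice and 6.27, 5.44 and 6.76 FPKM in the colitis mice, a log2 fold change of 1.31 ± 0.43 and an adjusted p of 0.131. The next 3 genes were named after their values were seen. Usp18, which strips Isg15 from proteins and dampens the receptor, had the greatest difference of the group, at 1.64, 3.14 and 1.45 FPKM against 10.2, 9.16 and 11.5 FPKM, with a log2 fold change of 2.33 ± 0.77. Isg15 itself, a ubiquitin-like modifier, was at 16.5, 30.1 and 11.2 FPKM against 86.4, 87 and 64.4 FPKM, with a log2 fold change of 2.14 ± 0.70. The transcription factor gene Irf7, which amplifies interferon production, was at 52.3, 57.6 and 57.1 FPKM against 132, 141 and 105 FPKM, with a log2 fold change of 1.16 ± 0.32. None of the 4 genes overlapped between the groups, and their adjusted p in limma was 0.0928 for Irf7 and 0.131 to 0.133 for the other 3. The subunit genes of the transcription complex, Stat2 and Irf9, differed less, with log2 fold changes of 0.77 and 0.56.

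All 6 OAS genes, which encode enzymes whose product activates an antiviral ribonuclease or relatives without that activity, were higher in colitis. Of them 4 were at an unadjusted P of at most 0.05 and 5 did not overlap, and the median log2 fold change was 1.5. Oas2, among the lowest of the 39 genes with a mean of 5.2 FPKM, was at 1.28, 1.29 and 1.95 FPKM in the normal mice and 6.34, 9.26 and 7.77 FPKM in the colitis mice, a log2 fold change of 2.30 ± 0.71 and an adjusted p of 0.116. Oas3 was at 2.2, 2.61 and 3.27 FPKM against 8.3, 9.01 and 11.9 FPKM, with a log2 fold change of 1.82 ± 0.57 and an adjusted p of 0.116. Every colitis mouse was above every normal mouse for both genes. Oas1a and Oas1g, whose separate levels are uncertain, had the smallest differences of the family, with log2 fold changes of 0.51 and 0.41.

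Among the sensors the difference was concentrated in few genes: 5 of 6 were higher, 2 at an unadjusted P of at most 0.05 and 3 without overlap, with a median log2 fold change of 0.41. Zbp1, a sensor of Z-form nucleic acid that can start necroptosis, was the third most abundant of the 39 genes, with a mean of 123 FPKM. It was at 38.4, 28.8 and 39.6 FPKM in the normal mice and 221, 267 and 157 FPKM in the colitis mice, a log2 fold change of 2.57 ± 0.62 with an adjusted p of 0.0667. Ifih1, the cytosolic sensor of long double-stranded RNA also called MDA5, was at 20.2, 24.6 and 23.6 FPKM against 30.5, 32.9 and 30 FPKM, with a log2 fold change of 0.45 ± 0.18 and an adjusted p of 0.186. Neither gene overlapped between the groups, although the difference of Ifih1 was small. Ddx58, or RIG-I, the sensor of short RNA with a 5′ triphosphate, was at 4.86, 4.96 and 6.69 FPKM against 4.68, 3.6 and 7.14 FPKM, with a log2 fold change of -0.14 ± 0.34 that turned to 0.20 under quantile normalization. Adar, which edits double-stranded RNA, had a log2 fold change of 0.19 ± 0.22. These 2 genes were named after their values were seen.

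The 7 other interferon-stimulated genes included 6 that were higher, 4 at an unadjusted P of at most 0.05 and 5 without overlap, with a median log2 fold change of 0.94. Lgals3bp, a secreted glycoprotein that binds galectin-3, was at 66.4, 63.6 and 78 FPKM in the normal mice and 150, 215 and 150 FPKM in the colitis mice, a log2 fold change of 1.29 ± 0.31 and an adjusted p of 0.0652. The lowest gene by mean level, Ifi44 at 3.31 FPKM, was at 0.68, 1.89 and 1 FPKM against 4.63, 5.54 and 7.7 FPKM, with a log2 fold change of 2.31 ± 0.78 and an adjusted p of 0.137. In both genes every colitis mouse was above every normal mouse. The exception was Ifi27, named after its values were seen, which was at 63.7, 61 and 32.7 FPKM in the normal mice and 28.2, 51.9 and 24.6 FPKM in the colitis mice, a log2 fold change of -0.61 ± 0.45 and an adjusted p of 0.417. Its groups overlapped.

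The pattern of colitis against normal mice was present on either side of the split by column total. Between the single mice numbered 4, 38 of 39 genes were higher, with a median log2 difference of 1.15, and between 2 and 2 mice numbered 1 to 3, 35 were higher, with a median of 0.92. With a block for the number 4, 9 of the 39 genes were higher past the adjusted limit, and so were 2.8% of all genes in that fit. Scaling raised the counts further: after centring each mouse on its own median, 38 genes were higher and 32 were at an unadjusted P of at most 0.05, where 9.42% of all genes were higher at that limit, and the share of higher genes among all calls of the whole table moved from 26% to 53.7%. By promoter, 12 of the 15 genes whose window held the letters searched and 12 of the 16 whose window did not hold them showed no overlap between the groups, and the median log2 fold changes were 0.77 and 1.14.

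**Figure D4:**
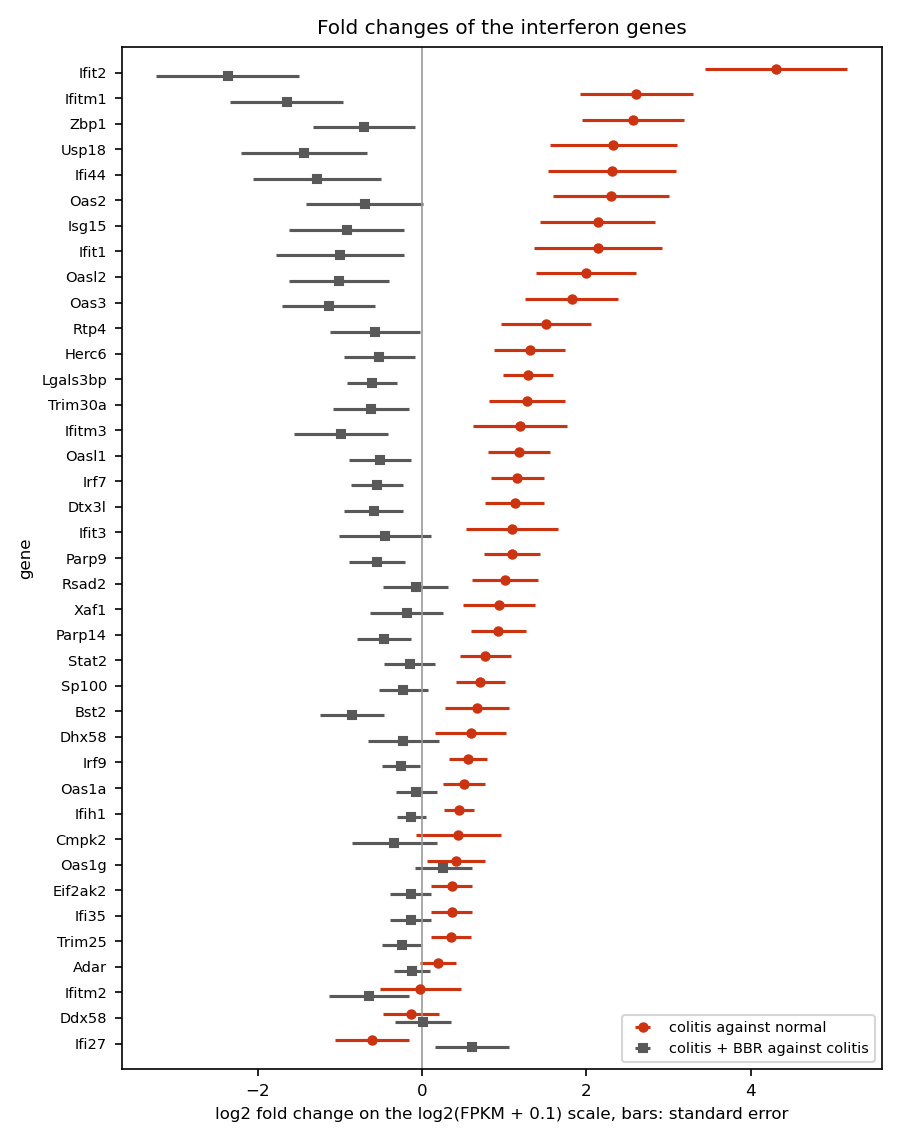
Log2 fold change of each of the 39 genes (y axis) on the log2(FPKM + 0.1) scale (x axis), for colitis against normal mice (red circles) and colitis mice given BBR against colitis mice (grey squares), with bars for the standard error. Of the red circles 36 lie above 0, up to 4.31 for Ifit2, and of the grey squares 36 lie below 0, down to -2.37 for the same gene. The comparisons share the colitis mice.

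The next comparison asked whether BBR altered these genes in colitis. Of the 39 genes, 36 were lower and 3 were higher in the colitis mice given BBR than in the colitis mice, while 62.0% of all tested genes were lower. The median log2 fold change was -0.52 over the 39 and -0.09 over all tested genes. No gene passed the adjusted limit in limma, among the 39 or among all tested genes (0.0%), and 3 of the 39 were at an unadjusted P of at most 0.05. All 3 were lower, as were 5.2% of all genes at that limit, and 1.19% of all genes were higher. The groups overlapped for all 39 genes, and 5.66% of all tested genes were lower without overlap. After centring each mouse on its median, 30 of the 39 genes were still lower and 1 was lower at the unadjusted limit, where 42.1% of all genes were lower and 3.49% lower at that limit.

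The 3 genes were Ifit2, Ifitm1 and Bst2. Ifit2 had a log2 fold change of -2.37 ± 0.87 with an unadjusted P of 0.0187 and an adjusted p of 0.633. Ifitm1 was at 73.9, 90.3 and 21.8 FPKM in colitis mice 2, 3 and 4 given BBR, and its log2 fold change was -1.65 ± 0.69 with an adjusted p of 0.717. Bst2 was at 12.9, 28.2 and 14.2 FPKM there, with a log2 fold change of -0.85 ± 0.39 and an adjusted p of 0.779. For Ifitm1 mice 2 and 3 exceeded the lowest colitis mouse, and for Bst2 mouse 3 did. Of the other genes, Oas3 was at 2.49, 11.3 and 2.79 FPKM in colitis mice 2, 3 and 4 given BBR, Ifi44 at 1.25, 7.74 and 1.26 FPKM and Herc6 at 3.33, 8.29 and 2.75 FPKM. In these 3 genes mice 2 and 4 were below every colitis mouse and mouse 3 was among them or above. Ifih1 was at 26.2, 36 and 24.2 FPKM and Ifitm2 at 117, 152 and 102 FPKM.

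The 3 colitis mice given BBR differed widely. Colitis mouse 3 given BBR was at or above the lowest colitis mouse for all 39 genes, whereas mouse 2 was so for 11 and mouse 4 for 4. In mouse 3 Zbp1 was at 431 FPKM, Oas2 at 17 FPKM and Ifitm3 at 242 FPKM, in mouse 2 at 100, 3.5 and 125 FPKM, and in mouse 4 at 48.6, 1.68 and 82.7 FPKM. Mouse 3 thus exceeded every colitis mouse for Zbp1 and Oas2. Without mouse 3, 38 of 39 genes were lower than in colitis mice, 18 of them at an unadjusted P of at most 0.05, with a median of -0.84. In that fit 52.1% of all genes were lower, and 7.54% were lower at the unadjusted limit. Ifit2 then passed the adjusted limit in limma, with an adjusted p of 0.0283. Without mouse 4, in which S100a8 was nearly absent, the median was -0.14, 28 genes were lower, and of 2 genes at the unadjusted limit both were higher. Of all genes, 73.9% were lower in that fit and 1.31% were higher at the unadjusted limit. Within the mice numbered 4 alone the median difference was -1.15, and within those numbered 1 to 3 it was -0.15 with 25 of 39 genes lower, near the -0.13 and 64.8% of all genes. Leaving out colitis mouse 2, or mouse 2 of those given BBR, left 1 gene lower at the unadjusted limit, where 4.21% and 2.46% of all genes were.

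**Figure D5:**
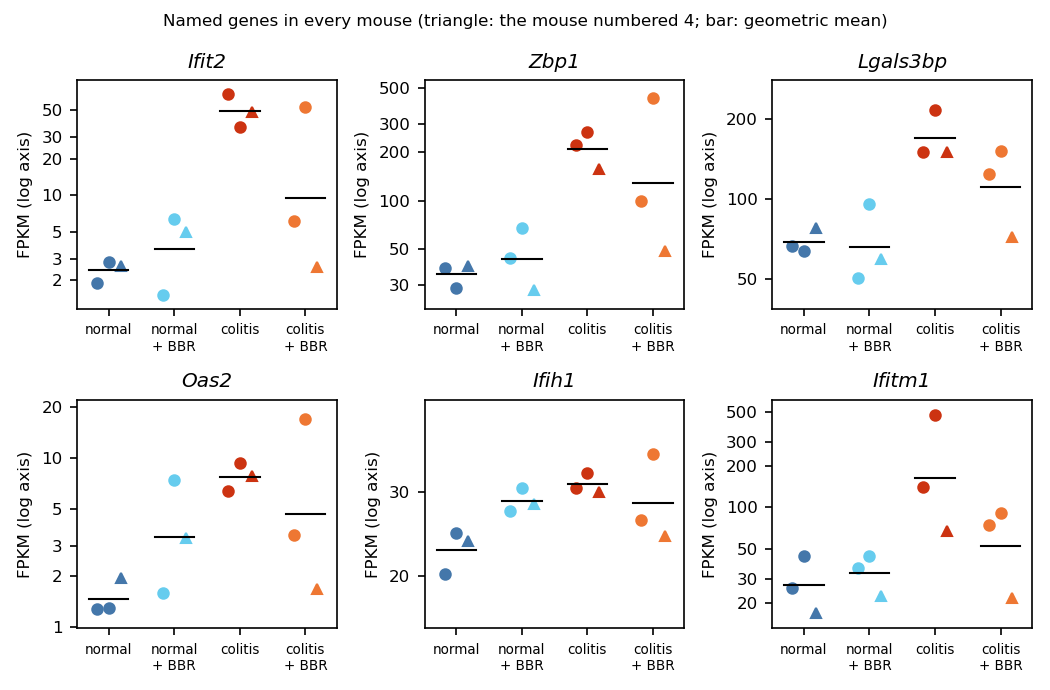
FPKM (y axis, log scale) of Ifit2, Zbp1, Lgals3bp, Oas2, Ifih1 and Ifitm1 in every mouse of the 4 groups (x axis), with triangles for the mice numbered 4 and bars for the geometric mean. The colitis mice lie above the normal mice in every panel. The colitis mice given BBR are widely spread, from 2.57 FPKM, in the range of the normal mice, to 53 FPKM, in that of the colitis mice, for Ifit2.

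BBR in normal mice was compared with water alone, to see whether it altered these genes without colitis. Of the 39 genes 34 were higher, and 45.9% of all genes were. The median log2 fold change was 0.24 over the 39 and -0.02 over all genes. None of the 39 was at an unadjusted P of at most 0.05 or past the adjusted limit in limma. Of all tested genes 0.516% were higher at the unadjusted limit and 0.0% passed the adjusted limit. The groups did not overlap for Ifih1 alone, where 4.17% of all genes were higher without overlap. It was at 27.4, 30.5 and 28.3 FPKM with BBR against 20.2, 24.6 and 23.6 FPKM without, a log2 fold change of 0.34 ± 0.18 with an unadjusted P of 0.0859. Oas2 was at 1.59, 7.36 and 3.34 FPKM with BBR, a log2 fold change of 1.15 ± 0.71, and Herc6 at 2.44, 6.47 and 3.03 FPKM, a log2 fold change of 0.58 ± 0.43. Their adjusted p was 1, as for all 39 genes. Among the other genes, Oas3 was at 2.2, 8.34 and 3.17 FPKM in normal mice 1, 3 and 4 given BBR, and Ifi44 at 0.78, 6.02 and 1.28 FPKM. Ifitm1 was at 36.4, 44.4 and 22.7 FPKM, Ifitm2 at 183, 216 and 102 FPKM, Ifitm3 at 148, 198 and 78.4 FPKM and Bst2 at 17.5, 32.5 and 11.7 FPKM. Mouse 3 was the highest in each. Without mouse 1 of those given BBR, 2 genes were higher at the unadjusted limit, as were 0.274% of all genes. The direction rested on mouse 3 of the normal mice given BBR, in which 36 of 39 genes exceeded the highest normal mouse, against 4 in mouse 1 and 8 in mouse 4. Without it 14 genes were higher, with a median of -0.11, and 40.3% of all genes were higher. That mouse had S100a8 at 0 FPKM and a summed macrophage level of 74.3 FPKM, inside the 60.2 to 87.8 FPKM of the normal mice, whereas its summed NK cell level of 2.58 FPKM, of which 2.27 FPKM was the granzyme gene Gzmb, lay above their 0.66 to 0.81 FPKM. Its summed T cell level of 3.72 FPKM lay just above their 1.9 to 3.61 FPKM.

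Colitis was also compared with its absence among the mice that received BBR. Here 32 of the 39 genes were higher, and 19.9% of all genes were. The median log2 fold change was 0.32 over the 39 and -0.40 over all genes. None of the 39 passed the adjusted limit in limma, and 0.0261% of all genes were higher past it. The groups overlapped for all 39, and 2.26% of all genes were higher without overlap. Of the 39, 2 were higher at an unadjusted P of at most 0.05, and 2.37% of all genes were. Zbp1 had a log2 fold change of 1.55 ± 0.62 with an adjusted p of 0.231, from 44.2, 68 and 27.9 FPKM in normal mice 1, 3 and 4 given BBR. Lgals3bp was at 50.3, 95.7 and 59.4 FPKM there and at 124, 152 and 72.2 FPKM in colitis mice 2, 3 and 4 given BBR, with a log2 fold change of 0.75 ± 0.31 and an adjusted p of 0.236. Next in order of P was Rsad2, with a log2 fold change of 0.76 ± 0.40 from 3.13, 5.77 and 5.94 FPKM to 9.99, 13.2 and 4.08 FPKM. In all 3 genes colitis mouse 4 given BBR lay within the range of the normal mice given BBR. Without it 11 genes were at the unadjusted limit and 4 passed the adjusted limit, namely Lgals3bp, Oas1g, Rsad2 and Zbp1. Of all genes in that fit, 3.87% were higher at the unadjusted and 1.63% past the adjusted limit. Without colitis mouse 3 given BBR the median was -0.09 and none of the 39 genes was at the unadjusted limit, where 1.34% of all genes were higher. The count was also 0 without mouse 1 or mouse 4 of the normal mice given BBR, where 1.81% of all genes were higher in either fit. Without mouse 3 of the normal mice given BBR it was 9, where 1.92% of all genes were higher at that limit. Centring each mouse on its median gave 39 of 39 genes higher, 9 of them at the unadjusted limit, where 7.08% of all genes were higher, and the share of higher genes among all calls of the table moved from 12.1% to 63.5%.

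The difference between the effects of BBR in colitis and in normal mice, the interaction, was negative for 36 of the 39 genes and for 58.9% of all genes, with medians of -0.69 and -0.08. No gene passed the adjusted limit in limma, a share of 0.0% of all genes. Ifit2 alone was at an unadjusted P of at most 0.05, with an interaction of -2.95 ± 1.23 (unadjusted P = 0.0341, limma), and 1.72% of all genes were negative at that limit. Oas3 followed with -1.67 ± 0.80 and Ifitm1 with -1.95 ± 0.97. The counts depended on single mice. Without colitis mouse 3 given BBR 16 genes were negative at the unadjusted limit and the median was -1.14, where 3.73% of all genes were negative at that limit. Without mouse 3 of the normal mice given BBR none of the 39 was, beside 1.16% of all genes. Leaving out mouse 1 of the normal mice given BBR gave 5 genes and leaving out normal mouse 3 gave 2, where 1.31% and 1.22% of all genes were negative at that limit. Leaving out any of colitis mouse 1, normal mouse 1, mouse 4 of the normal mice given BBR, or mice 2 or 4 of the colitis mice given BBR gave 0. In those fits 1.01% to 2.81% of all genes were negative at that limit, so that a count of 0 is near the share of all genes.

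The genes around the response were taken from a list that shares no gene with the 39. The type I and type III interferon genes found by symbol, Ifnk, Ifnl2 and Ifnl3, were below the minimum mean, at 0 to 0.21 FPKM in every mouse. No symbol starting with Ifna, Ifnb, Ifne or Ifnz was found, so that the levels of those interferon genes could not be assessed. In colitis against normal mice the receptor genes Ifnar1 and Ifnar2 had log2 fold changes of -0.32 ± 0.22 and 0.19 ± 0.41, and the type III receptor gene Ifnlr1 0.17 ± 0.21. The kinase genes Jak1 and Tyk2 had -0.10 ± 0.21 and -0.32 ± 0.27. Of 17 genes that lead to interferon production, 12 were higher and 1, Traf6, was higher at the unadjusted limit, a share of 5.88% where all tested genes gave 5.56%. Of 6 brakes on the pathway, 4 were higher, 3 were at the unadjusted limit and 1 passed the adjusted limit, the suppressor gene Socs3, named after its values were seen, with a log2 fold change of 3.74 ± 0.40. It was at 4.65, 2.25 and 3.44 FPKM in the normal mice and 38.3, 40.2 and 60.6 FPKM in the colitis mice. In colitis mice 2, 3 and 4 given BBR it was at 20.76, 61.15 and 23.95 FPKM, and in normal mice 1, 3 and 4 given BBR at 2.43, 1.55 and 1.86 FPKM. The log2 fold change between these was 3.96 ± 0.40, with an adjusted p of 0.00786 in limma, where 0.0261% of all genes were higher past the adjusted limit. Socs3 is also known to respond to other cytokines. A further 38 interferon-stimulated genes outside the list of 39 included 32 that were higher, 14 of them at the unadjusted limit (36.8%) and 17 without overlap, with a median log2 fold change of 0.70. Slfn1, named after its values were seen, passed the adjusted limit with a log2 fold change of 2.74, from 0.04, 0.04 and 0.38 FPKM to 0.88, 2.44 and 1.02 FPKM. The lower values are near or under the worth of 3 reads, so that the size of this change is uncertain. In normal mice given BBR against normal mice, 24 of these 38 were higher, with a median of 0.08, where 45.9% of all genes were higher. Ifit1bl2 alone, named after its values were seen, was at the unadjusted limit, beside 0.516% of all genes higher. It was at 11.26, 10.08 and 10.83 FPKM in normal mice 1, 3 and 4 given BBR and 2.57, 3.73 and 2.4 FPKM in the normal mice. In colitis mice given BBR against colitis mice, 30 of these 38 were lower, with a median of -0.32, and 2, Apobec3 and Slfn1, were lower at the unadjusted limit, near the 5.2% of all genes. Of the 17 genes that lead to interferon production, 14 were lower in that comparison, with a median of -0.33, where 62.0% of all genes were lower. Irf5, Tlr8 and Traf6, named after their values were seen, were lower at the unadjusted limit and without overlap. For all genes these shares were 5.2% and 5.66%, and none of the 17 passed the adjusted limit in limma.

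Markers of cells that could bring interferon genes with them moved between some of the groups. The general leukocyte gene Ptprc was at 1.75 to 4.12 FPKM in the normal mice, 3.61 to 7.2 FPKM in the colitis mice and 1.38 to 3.81 FPKM in the colitis mice given BBR. The summed level of 6 macrophage and monocyte genes was 60.2 to 87.8, 90.7 to 140 and 41.9 to 112 FPKM in the same order, and 5 of the 6 were higher in colitis, 3 at an unadjusted P of at most 0.05. In colitis mice given BBR against colitis mice all 6 were lower, 4 of them at that limit (Csf1r, Itgam, Ly6c2 and Adgre1) and 3 without overlap, beside the lower values of the interferon genes in that comparison. All 5 granulocyte genes that were tested, of 7 listed, were higher at that limit in colitis mice than in normal mice. In colitis mice given BBR against colitis mice all 5 were lower, none of them at that limit. The 6 listed genes of plasmacytoid dendritic cells, a known source of interferon, did not move together: 2 were higher in colitis and 4 lower, and their log2 fold changes had a median of -0.13. Siglech was at 0.54 to 0.78 FPKM in the normal mice and 0.08 to 0.21 FPKM in the colitis mice, whereas Ly6d had a log2 fold change of 1.62 ± 0.91 and Bst2, itself among the 39 genes, 0.67 ± 0.39. The lower Siglech values are near the worth of 3 reads of a 2 kilobase transcript, so that the size of its change is uncertain. The 4 T cell genes in the table summed to 1.9 to 3.61 FPKM in normal and 2.18 to 5.05 FPKM in colitis mice, and the 3 NK cell genes to 0.66 to 0.81 and 1.16 to 1.75 FPKM. No listed marker was at 0 in all 12 mice. Among the colitis mice given BBR, mouse 3 had the highest macrophage sum, 112 FPKM, and mouse 4 the lowest, 41.9 FPKM, in the same order as the interferon genes. The orders did not match in the other groups. In normal mice 1, 3 and 4 given BBR the macrophage sums were 92.9, 74.3 and 44.2 FPKM, beside interferon medians of -0.17, 0.75 and 0.01. In colitis mice 1, 2 and 4 they were 95.0, 140 and 90.7 FPKM, beside 0.97, 0.96 and 1.08. Most of the sums of the colitis mice given BBR was Cd14, at 47.3, 86.6 and 25.7 FPKM in mice 2, 3 and 4. Itgam and Ly6c2 were also highest in mouse 3, whereas Cd68 was highest in mouse 2 and Adgre1 and Csf1r differed little. The NK cell sums of mice 2, 3 and 4 were 0.71, 2.33 and 0.23 FPKM, and 2.22 FPKM of the sum in mouse 3 was Gzmb. Klrb1c was higher in mouse 2 than in mouse 3, and Ncr1 was listed at 0 in mice 3 and 4. The part of these cells in the levels of the 39 genes was not tested.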

How the data were processed

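Rectal or colorectal RNA of 12 mice, 3 in each of 4 groups named by the labels, was depleted of ribosomal RNA and sequenced as single reads of 50 bases. The authors filtered the reads, aligned them with Bowtie2 2.2.5, estimated expression with RSEM 1.2.12 on mm9 according to the submitters' processing notes, and deposited 1 FPKM value per gene and mouse. The unit was read from the values, since the sources used here do not name it, and TPM cannot be told apart from it. RSEM divides reads shared by near-identical genes by estimate. The labels and the study's methods name different library kits, and they differ on the days of BBR. Nothing in the labels says how the mice were housed or processed together, so that p-values measure only the spread between these mice.

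All genes whose mean reached 0.1 FPKM, 15315 in number, entered as log2(FPKM + 0.1), a scale that understates the change of low genes. Group means and 5 comparisons were estimated by limma 3.58.1 (R 4.3.3), with the spread allowed to follow the mean level. Benjamini-Hochberg adjusted p-values take in every gene entered, and 0.05 was the limit. The fit was tested on simulated data. Values in every mouse are given for those of the 39 genes past the adjusted limit, for the 3 of lowest P in each comparison, and for the 3 highest and 3 lowest by mean level. Further genes are named as chosen after their values were seen, and 1 gene of the pathway list is not reported here. The members and lists were chosen with earlier results of these data known.

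Replicate numbers are shared by all 3 mice of both normal groups. The deviations of same-numbered mice from their group means correlated at 0.109 to 0.657, highest for the mice numbered 4. Mouse 1 given BBR and normal mouse 3 correlated at 0.456, and mouse 3 given BBR and normal mouse 1 at 0.366. Different-numbered pairs with a mouse numbered 4 correlated at -0.532 to -0.337. These values do not show a pairing by number among the mice numbered 1 and 3. With the numbers as a replicate block, 0 of the 39 genes were at the unadjusted limit for BBR in normal mice. Steps among low values put 3 reads of a 2 kilobase transcript at 0.078 to 0.121 FPKM, depending on the mouse, which covers counting error only. The fewest estimated reads behind a value of the 39 genes were about 25, for Usp18. Python 3.11.15, pandas 2.3.3, NumPy 2.4.6, SciPy 1.17.1 and matplotlib 3.10.9 were used.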

Additional observations from a re-analysis of the deposited data

How the results depend on the processing

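For colitis against normal mice the median log2 fold change of the 39 genes was 1.09. It was 0.98 with a pseudocount of 1, 1.21 under quantile normalization, 1.42 after centring, 0.92 in the mice numbered 1 to 3 alone and 0.96 to 1.15 with 1 mouse left out. The 1 gene past the adjusted limit became 0 with a pseudocount of 0.01, with a filter at a mean of 1, with no filter and with no trend, and it became 16 in the compared groups alone (1.78% of all genes higher), 9 with a block for the mice numbered 4 (2.8%), 4 in the mice numbered 1 to 3 alone (1.56%) and 0 to 1 with 1 mouse left out. The 24 genes at the unadjusted limit became 15 in the mice numbered 1 to 3 alone (6.07% of all genes higher).

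For colitis mice given BBR against colitis mice, the 3 genes at the unadjusted limit became 1 after centring (3.49% of all genes lower) and 1 to 18 with 1 mouse left out, and 0 to 1 then passed the adjusted limit. For normal mice given BBR against normal mice, the 0 genes at the unadjusted limit became 1 in the compared groups alone (1.44% of all genes higher) and 0 to 2 with 1 mouse left out. The median of 0.24 then ran from -0.11 to 0.34. Among the mice given BBR, colitis against normal gave 2 genes at the unadjusted limit. This became 5 under quantile normalization (6.49% of all genes higher, against 2.37%), 9 after centring (7.08%), 0 in the compared groups alone (1.78%), 7 in the mice numbered 1 to 3 alone (3.6%) and 0 to 11 with 1 mouse left out, the median then running from -0.09 to 0.62. Past the adjusted limit were 2 genes in the mice numbered 1 to 3 alone (1.5%) and 0 to 4 with 1 mouse left out. The 1 gene of the interaction became 0 after centring (0.875% of all genes negative), 4 with a block for the mice numbered 4 (3.0%) and 0 to 16 with 1 mouse left out, the median then running from -1.14 to -0.36. The cause was not tested.

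Outside the normal groups only 2 numbers are shared by any groups compared. The mice numbered 4 deviated together across groups, with correlations of 0.357 to 0.751, whereas for the mice numbered 1 to 3 the mean correlation was 0.205 with the same number and 0.193 with different numbers. With the replicate block, 20 of the 39 genes passed the adjusted limit in colitis against normal mice (2.21% of all genes were higher past it), and the median was 1.21. The replicate block gave 19 genes at the unadjusted limit for BBR in colitis, 18 of them lower (8.98% of all genes were lower), 6 for colitis among the mice given BBR, 5 of them higher (2.9% of all genes), and 20 for the interaction, all negative (3.79%). Scaling moved the share of higher genes among all calls of the table from 18.6% to 46.1% for BBR in colitis and from 28.8% to 62.5% for the interaction after centring. Of 270 summaries over the 39 genes under an alternative, 53 moved by more than the spread between mice, for a median, or by more than 1.5 times, for a count, 2 reversed and 215 did neither. Of 270 values of single genes, 247 kept their side of the limit, 12 passed it newly, 11 lost it and none reversed.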
